A study of Homo sapiens with 12 samples.

Results

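The tight junction genes described here were 6 claudins (CLDN1, CLDN2, CLDN3, CLDN4, CLDN7 and CLDN18) and 4 of their partners, the 4-pass membrane proteins OCLN (occludin) and MARVELD2 (tricellulin), the adhesion protein F11R (junctional adhesion molecule A) and the scaffold TJP1 (ZO-1). They were taken by gene name, and all 10 were found once each among the 58302 genes of the deposited table. RNA was sequenced from BxPC-3 and CFPAC-1, both established lines of human pancreatic ductal adenocarcinoma, and from BxPC-3-GR and CFPAC-1-GR, the gemcitabine (GEM)-resistant lines grown from them under rising GEM doses. Each of the 4 lines had 3 libraries, 12 in all. GEM was raised in steps, up to 1000 nmol/L for BxPC-3-GR but 400 nmol/L for CFPAC-1-GR. The labels class both parental lines as sensitive with epithelial morphology, CFPAC-1-GR as resistant with epithelial morphology and BxPC-3-GR as resistant with mesenchymal morphology. Each resistant group is 1 derived line, and the labels do not say that its libraries came from separate cultures, so p values measure only the spread between these libraries.

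Tight junctions seal the space between neighboring epithelial cells near their apical border. Claudins form the strands and decide which ions and solutes can pass between the cells: CLDN1, CLDN3, CLDN4 and CLDN7 are counted among barrier-forming claudins, CLDN2 forms a pore for cations and water, and CLDN18 has a lung form and a stomach form that start at different promoters. Occludin lies along the strands, tricellulin at the corners where cells meet, junctional adhesion molecule A at the same border as a homophilic adhesion receptor, and ZO-1 ties claudin and occludin tails to actin.

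Values are FPKM, fragments scaled to the length of the gene and the mapped depth of the library, so that levels of different genes can be set side by side. The steps between low FPKM values gave an implied depth of 12600000 to 25200000 mapped fragments per library (median 18400000). Levels are given as mean ± SD of the 3 libraries of a line. The summed FPKM of 6 epithelial markers (EPCAM, KRT7, KRT8, KRT18, KRT19 and CDH1) was 838 to 917 in BxPC-3 and 945 to 1012 in BxPC-3-GR, against 2636 to 2914 in CFPAC-1 with 1156 to 1347 in CFPAC-1-GR, with every marker present in every line. The lower sum in CFPAC-1-GR came from the keratins, KRT19 (log2FC -1.57), KRT18 (-1.08), KRT8 (-0.99) and KRT7 (-0.77). CDH1 (0.77) and EPCAM (0.45) were higher there than in CFPAC-1. The sum of 4 mesenchymal markers (VIM, CDH2, FN1 and ZEB1) was 12.4 to 15.1 in BxPC-3 and 14.7 to 16.6 in BxPC-3-GR, against 119.7 to 155 in CFPAC-1 with 85.2 to 98.4 in CFPAC-1-GR. The lower sum in CFPAC-1-GR came from VIM (log2FC -1.11), while CDH2 (1.19) and FN1 (1.08) were higher there than in CFPAC-1. In BxPC-3-GR, the line with the mesenchymal label, VIM was lower than in BxPC-3 (log2FC -2.06), and CDH2 (log2FC 1.10) and FN1 (log2FC 0.68) were higher. ZEB1 was too low to be tested in either resistant line. Sums of fibroblast, endothelial, acinar and endocrine markers stayed at or below 3.44 FPKM in every library. The leukocyte list reached 45.2 FPKM in CFPAC-1 and 13.7 in CFPAC-1-GR, of which only LYZ and CD68 passed the filter for testing. PTPRC was listed at 0 in every library, and CD3E stayed at or below 0.0968 FPKM. The part of these differences in the results was not tested.

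The 6 claudins share a stretch of the first extracellular loop in which a glycine, a leucine and a tryptophan are followed by a pair of cysteines, and it is shown here because it marks the family and because the claudins differ in base composition, a property that went with the size of differences in CFPAC-1-GR. Each line gives the GENCODE coding sequence from the glycine codon to the second cysteine codon, 5′ to 3′ on the coding strand, with the codons of these 5 residues in capitals.
CLDN1: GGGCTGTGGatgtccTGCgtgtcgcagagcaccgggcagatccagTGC
CLDN2: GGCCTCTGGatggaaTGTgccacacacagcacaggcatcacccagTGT
CLDN3: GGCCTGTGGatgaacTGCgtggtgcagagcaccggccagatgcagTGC
CLDN4: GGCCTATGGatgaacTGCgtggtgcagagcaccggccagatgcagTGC
CLDN7: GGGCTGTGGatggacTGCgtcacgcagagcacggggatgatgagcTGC
CLDN18: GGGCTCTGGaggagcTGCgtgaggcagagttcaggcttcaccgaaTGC
On GRCh38 the stretches lie in coding exons, at chr3:190322015-190322062 on the minus strand (CLDN1), chrX:106928373-106928420 on the plus strand (CLDN2), chr7:73769861-73769908 on the minus strand (CLDN3), chr7:73831346-73831393 on the plus strand (CLDN4), chr17:7261852-7261899 on the minus strand (CLDN7) and chr3:138010367-138010414 on the plus strand (CLDN18). Over whole coding sequences, CLDN3 and CLDN4 were the most alike of the 15 pairs, with 71.5% of aligned codons encoding the same residue, and CLDN2 and CLDN18 the least alike at 30.1%. CLDN3 and CLDN4 are also neighbors on chromosome 7 (73768997 to 73770270 and 73799542 to 73832693), and 1.8% of the 50-base stretches of CLDN3 transcripts also occur in CLDN4. The GC content of the longest transcript was 69.2% for CLDN3, 59.6% for CLDN7, 57.5% for CLDN4, 52.6% for CLDN2, 45.7% for CLDN18 and 41.5% for CLDN1. Among the partners it was 47.6% for F11R, 44.8% for TJP1, 43.5% for MARVELD2 and 39.9% for OCLN.

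The 2 line families carried different sets of claudins. CLDN1 was the most abundant claudin of BxPC-3 (45.6 ± 2.0 FPKM) and BxPC-3-GR (96.0 ± 3.4), and CLDN3 that of CFPAC-1 (139.2 ± 3.37) and CFPAC-1-GR (52.4 ± 4.31). CLDN2 was present in the CFPAC-1 lines and CLDN18 in the BxPC-3 lines, each near or at 0 in the other family. CLDN7, OCLN, TJP1, MARVELD2 and F11R were present in all 4 lines.

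**Figure D1:**
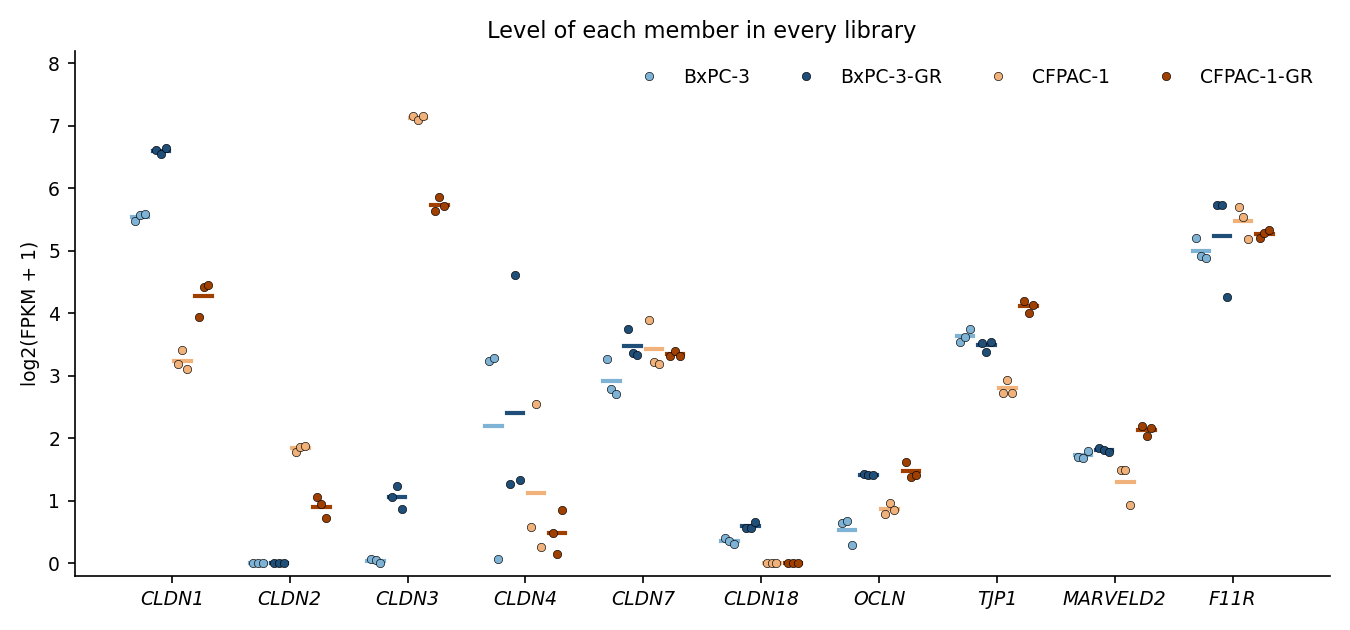
Level of each member in every library, as log2(FPKM + 1), with 1 point per library and a bar for the mean of the 3 libraries of each line. CLDN1 stood highest in the BxPC-3 lines and CLDN3 in the CFPAC-1 lines, and the 3 points of CLDN4 lay far apart within BxPC-3, BxPC-3-GR and CFPAC-1.

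In its order of levels, CLDN1 fell from BxPC-3-GR through BxPC-3 and CFPAC-1-GR (18.5 ± 3.67 FPKM) to CFPAC-1 (8.43 ± 1.05), and the ranges of no 2 lines overlapped. CLDN3 fell from CFPAC-1 through CFPAC-1-GR and BxPC-3-GR (1.09 ± 0.261) to BxPC-3 (0.0284 ± 0.0247), again without overlap. TJP1 was highest in CFPAC-1-GR (16.3 ± 1.11), then in BxPC-3 (11.5 ± 0.935) and BxPC-3-GR (10.2 ± 0.649), where the highest BxPC-3-GR library (10.6) lay just under the lowest BxPC-3 library (10.7), and lowest in CFPAC-1 (5.97 ± 0.601). OCLN was at 1.77 ± 0.248 in CFPAC-1-GR and 1.67 ± 0.0198 in BxPC-3-GR, which overlapped, against 0.830 ± 0.119 in CFPAC-1 and 0.459 ± 0.207 in BxPC-3. MARVELD2 was at 3.37 ± 0.239 in CFPAC-1-GR, 2.50 ± 0.0791 in BxPC-3-GR, 2.31 ± 0.146 in BxPC-3 and 1.51 ± 0.523 in CFPAC-1, with overlap only between the BxPC-3 lines. CLDN7 (line means of 6.69 to 10.3 FPKM) and F11R (31.2 to 43.9) differed least between lines by the ratio of their highest to their lowest mean.

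BxPC-3-GR was compared with BxPC-3 to see which junction genes differed in the resistant line. Of the members tested, CLDN1 alone met the criteria below upward, and none met them downward. Limma was fitted on log2(FPKM + 1) for genes whose mean over the 6 libraries reached 1 FPKM, and significantly differentially expressed (SDE) genes had a Benjamini-Hochberg adjusted p below 0.05 with an absolute log2FC above 1. Of the 10 members 7 passed the filter, 1 was SDE upward and 0 downward, against 4.14% upward and 3.62% downward of all 11710 genes tested. By adjusted p alone 3 of the 7 passed, against 57.7% of all genes, and the members had a median log2FC of 0.24 beside -0.05 over all genes.

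CLDN1 was at 97.3, 92.1 and 98.5 FPKM in the libraries of BxPC-3-GR and at 43.3, 46.6 and 46.9 in those of BxPC-3. Every resistant library was above every parental one, with a log2FC of 1.06 (SE 0.057, adjusted p = 3.54e-05). OCLN was at 1.69, 1.67 and 1.65 FPKM in BxPC-3-GR and at 0.568, 0.589 and 0.221 in BxPC-3. Its groups did not overlap either, and its log2FC of 0.88 (SE 0.109, adjusted p = 8.09e-04) passed by adjusted p but not by size. OCLN reached the filter only through the resistant libraries, and since a pseudocount of 1 understates changes of low genes, a pseudocount of 0.1 gave a log2FC of 1.74. CLDN7 was at 12.4, 9.33 and 9.04 FPKM in BxPC-3-GR and at 8.67, 5.89 and 5.51 in BxPC-3. The lowest resistant library was just above the highest parental one, and the log2FC of 0.56 (SE 0.184, adjusted p = 0.0395) was no longer past 0.05 in 5 of the 6 fits that left out 1 library (adjusted p up to 0.111).

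CLDN3, at a mean below 1 FPKM, was not tested, but its single annotated transcript let fragments be read from the FPKM values. BxPC-3-GR held 35, 37 and 26 implied fragments (1.09, 1.34 and 0.822 FPKM) and BxPC-3 held 1, 1 and 0 (0.0452, 0.0400 and 0 FPKM). Per mapped fragment the resistant line had 37 times as many, with an exact 95% interval of 9.97 to 309.8 that covers counting error only. Fitted with no filter on low values, its log2FC was 1.01 (adjusted p = 0.00112 over 28777 genes) and the gene was SDE. Even so the level in BxPC-3-GR was a small part of that in either CFPAC-1 line. CLDN18, also below the filter, was at 0.482, 0.478 and 0.571 FPKM in BxPC-3-GR and at 0.318, 0.282 and 0.232 in BxPC-3, where the groups did not overlap. Its log2FC with no filter was 0.24 (adjusted p = 0.00856). CLDN2 was listed at 0 in every BxPC-3 library and in 2 of the 3 BxPC-3-GR libraries, with 0.00647 FPKM in the other.

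The remaining members did not pass. TJP1 was at 10.5, 9.45 and 10.6 FPKM in BxPC-3-GR and at 10.7, 11.3 and 12.5 in BxPC-3 (log2FC -0.16, 95% interval -0.34 to 0.03, adjusted p = 0.129). MARVELD2 was at 2.58, 2.50 and 2.42 against 2.26, 2.20 and 2.47 FPKM, groups that overlapped (log2FC 0.08, interval -0.05 to 0.21). F11R was at 52.1, 52.1 and 18.2 FPKM in BxPC-3-GR and at 35.9, 29.1 and 28.7 in BxPC-3. The third BxPC-3-GR library lay below all parental ones and the other two above them, so the log2FC of 0.24 (interval -0.74 to 1.22, adjusted p = 0.636) became 0.73 (adjusted p = 0.00483) without it. Neither size nor direction could be given for CLDN4, at 1.42, 23.4 and 1.52 FPKM in BxPC-3-GR and at 8.41, 8.78 and 0.0415 in BxPC-3 (log2FC 0.21, interval -2.80 to 3.22).

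CFPAC-1-GR was compared with CFPAC-1 in the same way. As deposited, CLDN1 and TJP1 were SDE upward and CLDN3 downward. In this comparison the log2FC of all genes followed GC content, with a Spearman correlation of -0.78 across 12030 genes (not independent replicates), and with a correction for GC content and length none of the 3 calls was left. The corrected share over all genes was lower too, at 7.07% SDE upward and 2.35% downward of 12030 genes. Of the 10 members 9 passed the filter, 2 were SDE upward and 1 downward, against 20.5% upward and 11.7% downward of all 12051 genes. By adjusted p alone 6 of the 9 passed, against 79.6% of all genes. The median log2FC was -0.09 over the members tested and 0.13 over all genes. Both kinds of library scaling moved the median of all genes, by -0.27 (median-of-ratios) and -0.42 (upper-quartile), and the upward share of all SDE genes from 63.7% to 41.9% and 32.1%.

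CLDN3 was at 48.5, 57.0 and 51.7 FPKM in CFPAC-1-GR and at 141.3, 135.3 and 140.9 in CFPAC-1. The level in the parental line was 2.66 times that in the resistant line, with a log2FC of -1.40 (SE 0.0789, adjusted p = 8.79e-06). This was the member richest in GC, and the median log2FC of genes with 65 to 70% GC was -0.99. After the correction the log2FC of CLDN3 was -0.13 (SE 0.0591, adjusted p = 0.096). CLDN2 was at 1.08, 0.921 and 0.652 FPKM in CFPAC-1-GR and at 2.45, 2.64 and 2.66 in CFPAC-1, without overlap, and reached the filter only through the parental libraries. Its log2FC of -0.93 (SE 0.0967, adjusted p = 9.95e-05) did not pass by size, became -1.01 without the first CFPAC-1-GR library and -1.12 and -1.24 under the scalings, and was -0.53 (adjusted p = 0.0041) after the correction.

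CLDN1 was at 14.3, 20.5 and 20.8 FPKM in CFPAC-1-GR and at 8.11, 9.61 and 7.58 in CFPAC-1, again with every resistant library above every parental one. Its log2FC of 1.04 (SE 0.158, adjusted p = 7.33e-04) was close to the threshold of 1: it was 0.97 without the third CFPAC-1 library, 0.96 without the second CFPAC-1-GR library, 0.95 without the third, 0.74 and 0.58 under the scalings, and 0.29 (adjusted p = 0.184) after the correction. TJP1 was at 17.3, 15.1 and 16.6 FPKM in CFPAC-1-GR and at 5.63, 6.66 and 5.61 in CFPAC-1, a ratio of means of 2.73 and a log2FC of 1.31 (SE 0.0895, adjusted p = 1.57e-05). The log2FC was 0.87 under upper-quartile scaling, and after the correction it was 0.62 and still passed by adjusted p (4.11e-04).

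MARVELD2 was at 3.56, 3.10 and 3.46 FPKM in CFPAC-1-GR and at 1.80, 1.82 and 0.907 in CFPAC-1 (log2FC 0.82, adjusted p = 0.00248), and at a log2FC of 0.19 (adjusted p = 0.341) after the correction. OCLN was at 2.06, 1.61 and 1.66 against 0.722, 0.958 and 0.810 FPKM (log2FC 0.60, adjusted p = 7.05e-04). It reached the filter only through the resistant libraries, as in the BxPC-3 lines. For OCLN, the member poorest in GC, the correction turned the direction, to -0.43 (adjusted p = 0.00169). CLDN7 was at 8.91, 9.53 and 9.01 FPKM in CFPAC-1-GR and at 13.8, 8.29 and 8.11 in CFPAC-1, where the first parental library lay above the other five. Its log2FC was -0.09 (interval -0.53 to 0.36) as deposited and 0.90 (adjusted p = 0.0045) after the correction. F11R was at 35.8, 37.9 and 39.1 against 50.7, 45.4 and 35.6 FPKM (log2FC -0.21, interval -0.52 to 0.11). CLDN4 was at 0.394, 0.104 and 0.799 FPKM in CFPAC-1-GR and at 0.498, 4.87 and 0.194 in CFPAC-1 (log2FC -0.64, interval -2.02 to 0.74). CLDN18 was listed at 0 in all 6 libraries.

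**Figure D2:**
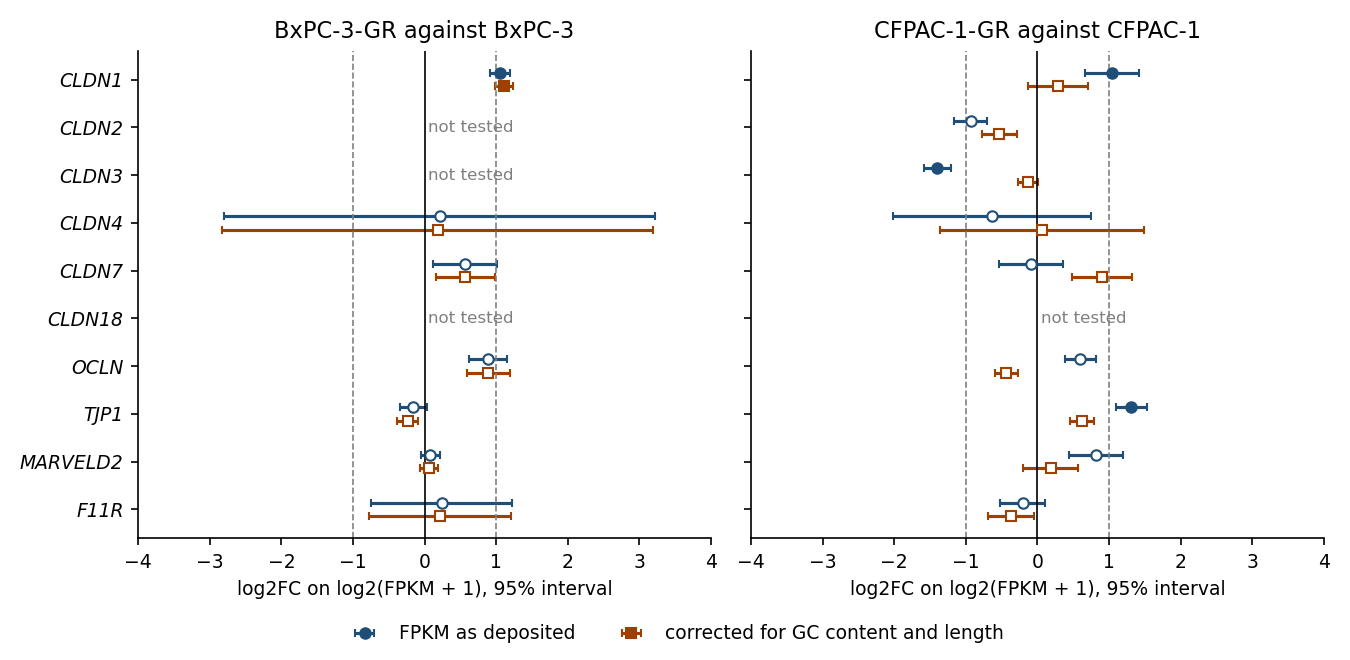
Log2FC of each member in the resistant against the parental line, with 95% intervals that are not adjusted for the number of genes, for FPKM as deposited (circles) and corrected for GC content and length (squares). Filled symbols are SDE and dashed lines mark an absolute log2FC of 1. In the BxPC-3 lines the symbols of each pair nearly coincide, and in the CFPAC-1 lines the filled circles of CLDN1, CLDN3 and TJP1 become open squares.

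In the BxPC-3 lines the correlation of log2FC with GC content was 0.04, and the correction left CLDN1 SDE at 1.11. There it gave TJP1 a log2FC of -0.24 with an adjusted p of 0.0162.

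**Figure D3:**
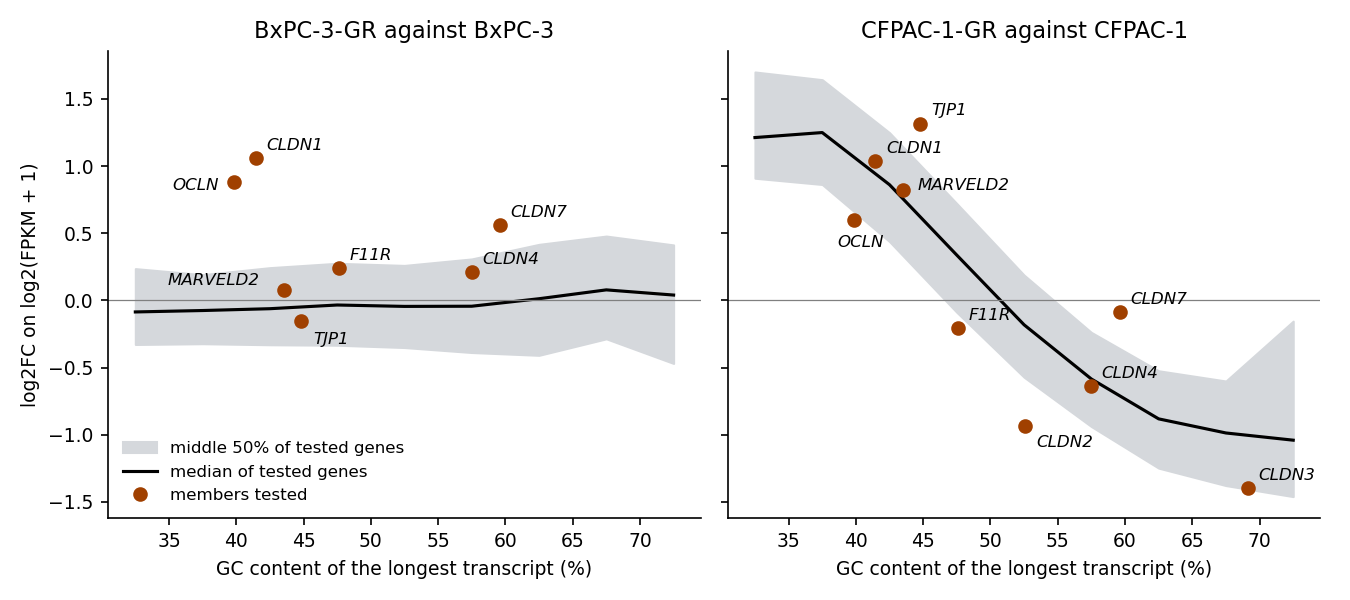
Log2FC against the GC content of the longest transcript, for the members tested (points) and for all genes tested, as the median (line) and middle 50% (band) of genes in steps of 5% GC. The line is flat for BxPC-3-GR against BxPC-3 and falls from 1.21 at 30 to 35% GC to -1.04 at 70 to 75% GC for CFPAC-1-GR against CFPAC-1, where CLDN1, MARVELD2 and CLDN4 lie inside the band, TJP1 and CLDN7 above it, CLDN2 below it, and CLDN3, OCLN and F11R at or just past its lower edge.

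Whether the lines responded differently was tested as an interaction over all 12 libraries, with the log2FC of the CFPAC-1 lines minus that of the BxPC-3 lines. CLDN3 and TJP1 passed, in opposite directions. Of the 8 members tested 1 was SDE upward and 1 downward, against 23.6% and 14.4% of all 12210 genes, and 3 passed by adjusted p alone, against 76.6%. CLDN3 had a difference of -2.41 (SE 0.125, adjusted p = 3.33e-08). It reached the filter through the CFPAC-1 lines, and since BxPC-3 held 2 implied fragments in all, the size depends on the pseudocount and was -4.61 with 0.1. It was higher in the resistant than in the parental line for BxPC-3 and lower for CFPAC-1, in each case without overlap. TJP1 had a difference of 1.47 (SE 0.118, adjusted p = 7.26e-07). Once corrected for GC content and length, the differences were -0.97 and 0.90, with adjusted p of 1.21e-05 and 8.52e-06 and no longer past 1 in size, and OCLN was SDE instead (-1.27, adjusted p = 2.15e-05), against corrected shares of 13.4% upward and 6.16% downward over all genes. MARVELD2 had a difference of 0.74 (adjusted p = 0.00319), and of 0.17 (adjusted p = 0.441) after the correction. For CLDN1 the difference was -0.02 (interval -0.42 to 0.38) as deposited and -0.76 (adjusted p = 0.00541) after the correction. The median over the members tested was -0.36, beside 0.22 over all genes. The scalings moved the latter by -0.28 and -0.37 and the upward share of SDE genes from 62.1% to 43.8% and 39.1%, and both calls held.

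The line families were compared in the parental and in the resistant state. These comparisons share their libraries with those above and are not independent of them. CLDN1 was higher in the BxPC-3 lines and CLDN3 in the CFPAC-1 lines in both states. For BxPC-3 against CFPAC-1, 8 members were tested, 1 was SDE upward and 2 downward, against 24.7% and 19.8% of all 11842 genes, and 6 passed by adjusted p alone, against 84.2%. For BxPC-3-GR against CFPAC-1-GR, 8 members were tested, 1 was SDE upward and 1 downward, against 6.8% and 10.3% of all 12330 genes, and 4 passed by adjusted p alone, against 65.3%. The median log2FC of the members was -0.03 beside 0.10 over all genes in the parental state, and -0.04 beside -0.09 in the resistant state. Under the scalings the median over all genes shifted by -0.16 and -0.29 between the parental lines and by 0.15 and 0.13 between the resistant lines, and the upward share of SDE genes went from 55.4% to 47.8% and 42.1% and from 39.7% to 52.9% and 51.4%. The correlation of log2FC with GC content was -0.63 between the parental lines and 0.02 between the resistant lines.

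CLDN1 differed by a log2FC of 2.31 (SE 0.0909, adjusted p = 9.97e-07) between the parental lines and of 2.33 (SE 0.143, adjusted p = 1.59e-05) between the resistant lines, and after the correction by 1.52 and 2.35. CLDN3 differed by -7.09 (SE 0.0515, adjusted p = 3.09e-08) and by -4.68 (SE 0.111, adjusted p = 3.44e-07), and after the correction by -5.77 and -4.81. The first of these depends on the pseudocount, and CLDN3 reached the filter there only through CFPAC-1, since BxPC-3 held 2 implied CLDN3 fragments in all beside 7973 in CFPAC-1. Per mapped fragment CFPAC-1 had 4806 times as many, with an exact 95% interval of 1330 to 39690 for counting error only. CLDN2 was SDE between the parental lines (log2FC -1.84, adjusted p = 2.87e-07; -1.33 after the correction), a value that also rests on the pseudocount because every BxPC-3 library was listed at 0 and only CFPAC-1 carried it past the filter. Between the resistant lines CLDN2 was below the filter, at 0.652 to 1.08 FPKM in CFPAC-1-GR. CLDN18, listed at 0 in all 6 libraries of the CFPAC-1 lines and at 0.232 to 0.571 FPKM in those of the BxPC-3 lines, was below the filter in both states.

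TJP1 was higher in BxPC-3 than in CFPAC-1 (log2FC 0.84, adjusted p = 1.07e-04; 0.11 and adjusted p = 0.211 after the correction) and lower in BxPC-3-GR than in CFPAC-1-GR (log2FC -0.63, adjusted p = 4.42e-04; -0.71 after the correction). MARVELD2 had a log2FC of 0.42 (adjusted p = 0.0433) between the parental lines, which the correction turned to -0.27 (adjusted p = 0.171), and of -0.32 (adjusted p = 0.00486) between the resistant lines. F11R had a log2FC of -0.47 (adjusted p = 0.0227) between the parental lines, whose ranges overlapped, and of -0.03 (interval -0.95 to 0.90) between the resistant lines, which became 0.46 (adjusted p = 0.00299) without the third BxPC-3-GR library. OCLN was below the filter in the parental comparison and had a log2FC of -0.05 (interval -0.24 to 0.14) between the resistant lines. CLDN7 had log2FC values of -0.51 (interval -1.08 to 0.06) and 0.14 (interval -0.15 to 0.42). CLDN4 had 1.06 (interval -1.42 to 3.55) and 1.92 (interval -0.18 to 4.02), where the ranges of the resistant lines did not overlap. Without the third BxPC-3 library, at 0.0415 FPKM, CLDN4 was SDE between the parental lines (2.13, adjusted p = 0.0349).

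**Figure D4:**
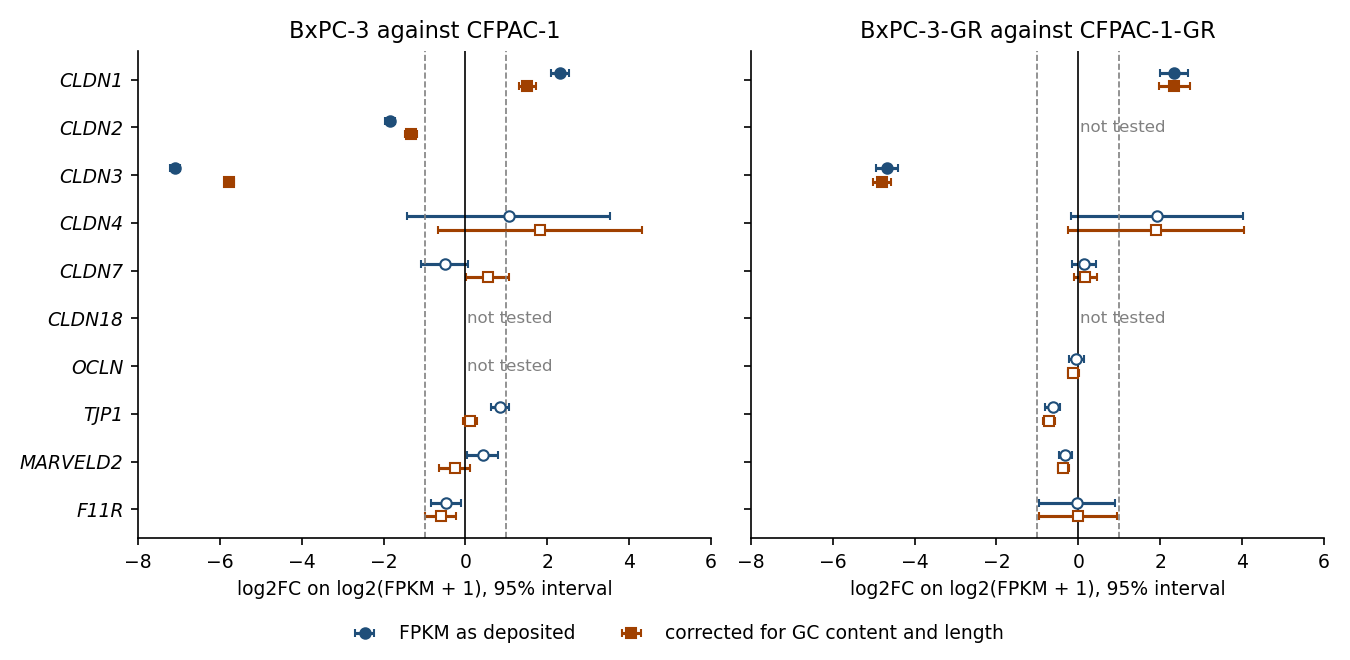
Log2FC of each member between the line families, in the parental (left) and the resistant state (right), with 95% intervals not adjusted for the number of genes. Circles are FPKM as deposited, squares are corrected for GC content and length, filled symbols are SDE and dashed lines mark an absolute log2FC of 1. CLDN1 lay above 1 and CLDN3 below -4 in both panels under both treatments of the values.

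CLDN4 varied between libraries of the same line more than nearly any other gene. The highest library was 211 times the lowest in BxPC-3, 16.5 times in BxPC-3-GR, 25.1 times in CFPAC-1 and 7.71 times in CFPAC-1-GR. The SD within lines on the log2 scale was 1.48 (8 degrees of freedom), above 99.9% of the 12210 genes whose mean reached 1 FPKM, with a median of 0.11. Only 59 of these genes had an SD above 1. F11R (0.45, above 96.9% of genes) and CLDN7 (0.28, above 90.8%) also stood high, and the other members with such a mean lay between 0.10 (TJP1) and 0.17 (MARVELD2). CLDN4 has 5 annotated transcripts of 580 to 4163 bases. F11R shares 34.7% of its 50-base stretches with the readthrough gene AL591806.3, and CLDN7 shares 8.25% with the readthrough gene AC003688.1 and overlaps ELP5 on the other strand. OCLN shares 7.79% with its pseudogene OCLNP1. CLDN2 lies inside MORC4, which runs on the other strand. How the table divided fragments between such transcripts and genes is not given in the sources used here, so the levels of CLDN4, F11R, CLDN7, OCLN and CLDN2 are less certain. Whether this division went into the spread was not tested.

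The remaining loci, on GRCh38 as deposited, were chr3:190305701-190322475 for CLDN1, chr3:137998735-138033655 for CLDN18, chr5:69492292-69558104 for OCLN, chr5:69415112-69444330 for MARVELD2, chr15:29699367-29968865 for TJP1, chr1:160995211-161021348 for F11R, chr17:7259903-7263983 for CLDN7 and chrX:106900164-106930861 for CLDN2. OCLN and MARVELD2 are neighbors on chromosome 5.

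Upstream sequence is shown for CLDN1, CLDN3 and TJP1, the members that were SDE between a resistant and a parental line. RefSeq windows (GRCh38.p14) matched 9 members, all but F11R, with 16 start sites. The 250 bases before each start site were searched on both strands for CAGGTG, the E-box letters that SNAI and ZEB repressors of junction genes are known to bind, and for GGGCGG, the GC box. CAGGTG was found in 5 of the 16 windows, belonging to 4 members (CLDN7, CLDN18, OCLN and TJP1), and in 17.5% of all 35116 windows. GGGCGG was found in 9 of the 16 and in 42.6% of all. Bases that lie inside the deposited gene locus were left out, and CAGGTG is in capitals.
CLDN1: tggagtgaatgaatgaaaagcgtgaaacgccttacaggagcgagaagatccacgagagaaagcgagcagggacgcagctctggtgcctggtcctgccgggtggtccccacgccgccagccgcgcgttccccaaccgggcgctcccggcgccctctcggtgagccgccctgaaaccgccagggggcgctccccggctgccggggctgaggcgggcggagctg
CLDN3: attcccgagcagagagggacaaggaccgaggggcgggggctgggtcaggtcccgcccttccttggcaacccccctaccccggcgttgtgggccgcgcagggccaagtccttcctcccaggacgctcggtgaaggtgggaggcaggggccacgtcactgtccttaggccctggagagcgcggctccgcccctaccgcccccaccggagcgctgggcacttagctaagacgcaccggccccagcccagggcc
TJP1: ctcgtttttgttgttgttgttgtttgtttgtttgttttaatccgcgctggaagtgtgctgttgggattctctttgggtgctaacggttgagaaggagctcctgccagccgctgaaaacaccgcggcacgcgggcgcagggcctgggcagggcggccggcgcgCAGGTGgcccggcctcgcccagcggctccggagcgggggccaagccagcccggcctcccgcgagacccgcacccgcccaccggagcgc
They lie at chr3:190322476-190322696, chr7:73770271-73770520 and chr15:29969050-29969299, all for genes on the minus strand, and hold 2, 4 and 2 matches of GGGCGG. TJP1 has 4 RefSeq windows, of which the one farthest upstream is shown. Its match begins 88 bases before that start site, and the other 3 TJP1 windows, like those of CLDN1 and CLDN3, hold none. A match of letters is not a bound site. Of the SNAI and ZEB factors, SNAI2 was at 39.5 to 43.3 FPKM in BxPC-3, 22.7 to 23.4 in BxPC-3-GR, against 2.43 to 2.92 in CFPAC-1 with 3.65 to 4.25 in CFPAC-1-GR. SNAI1 ran the other way, at 0.171 to 0.521 FPKM in BxPC-3 and 0.143 to 0.401 in BxPC-3-GR, against 8.76 to 9.67 in CFPAC-1 with 5.38 to 7.0 in CFPAC-1-GR. ZEB1 stayed at or below 0.197 FPKM in every library.

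The genes whose 4 line means ran most like a member's were ranked by the root mean square difference of centered means of log2(FPKM + 1) among protein-coding genes whose mean reached 1 FPKM, for the 5 members whose line means spanned more than 1. For CLDN1 they were SLC4A11 (0.126), JAK2 (0.133) and ABLIM1 (0.203), and for CLDN2 GHDC (0.00888), PTRHD1 (0.0447) and MRPL43 (0.0494). For CLDN3 they were NNMT (0.400), RARRES3 (0.429) and CD74 (0.443), with line means of at most 1.59 FPKM in the BxPC-3 lines and of 51.1 to 212.7 FPKM in the CFPAC-1 lines. For TJP1 they were SSB (0.0343), SENP2 (0.0435) and UGGT1 (0.0439), and for CLDN4, whose means rest on scattered libraries, FKBP4 (0.0649), MAP3K6 (0.0721) and CD55 (0.0842). With only 4 means per gene many genes come close, and the likeness is a description.

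Other junction genes were read from 5 lists, and 1 more held transcription factors. In BxPC-3-GR against BxPC-3 the largest log2FC of these lists was that of TJP3 (ZO-3), a scaffold of the same family as TJP1, at 11.3 to 14.1 FPKM in BxPC-3-GR and 0.527 to 0.644 in BxPC-3 (log2FC 3.06, adjusted p = 4.62e-06). TJP3 passed the filter only through the resistant libraries, as OCLN did. Of 14 scaffold and polarity genes tested it was the 1 that was SDE (list median 0.34), and 9 more passed by adjusted p alone. Of 5 other tight junction membrane proteins 2 were SDE upward, the polarity protein CRB3 (1.27) and the tricellular protein ILDR1 (1.22), and the other three passed by adjusted p alone, in both directions (median 0.75). Of 9 adherens junction genes NECTIN4 (1.46) was SDE upward (median -0.11), and of 9 desmosome genes DSC2 (1.55) was (median -0.15). None of these genes was SDE downward. The shares over all genes were 4.14% upward and 3.62% downward with a median of -0.05, and 1 of 9 or 1 of 14 genes is near them. By adjusted p at any size, SDE genes included, 57.7% of all genes passed. The 1 other claudin that passed the filter, CLDN12, was not SDE (0.22). The correction for GC content and length kept each of these calls.

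In CFPAC-1-GR against CFPAC-1, 6 of 17 scaffold and polarity genes were SDE upward and 0 downward, and 9 more passed by adjusted p alone, in both directions (list median 0.43). The SDE genes were led by MPP5 (2.07), PARD6B (1.99), PRKCI (1.72) and MAGI3 (1.43), which all act in apical polarity complexes or as scaffolds. Of 6 other claudins CLDN10 (-1.69) was SDE downward and 0 upward (median -0.19). Of 5 other membrane proteins CXADR (1.77), a virus receptor of the junction, was SDE upward and LSR (-1.36), a tricellular protein, downward (median -0.22). Of 9 adherens junction genes NECTIN3 (1.52) and AFDN (1.05) were SDE upward and NECTIN2 (-1.08) downward (median 0.33). Of 6 desmosome genes DSG2 (1.77), DSP (1.46), DSC2 (1.26) and PKP2 (1.07) were SDE upward and 0 downward (median 1.17). Over all genes 20.5% were SDE upward and 11.7% downward, with a median of 0.13, and after the correction 7.07% and 2.35%. As deposited, 79.6% of all genes passed by adjusted p at any size, SDE genes included. These calls lean on the GC trend: after the correction CLDN10 (-2.46), PARD6B (1.07) and DSP (1.14) were still SDE, the other calls were lost, and AMOTL2 (1.02), NECTIN4 (1.19) and YBX3 (-1.37) became SDE. MAGI3, MPDZ (also among the 6 scaffold and polarity genes), NECTIN3, DSC2 and NECTIN4 had means below 1 FPKM in CFPAC-1. They passed only through CFPAC-1-GR, so the filter fixed their direction as deposited.

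**Figure D5:**
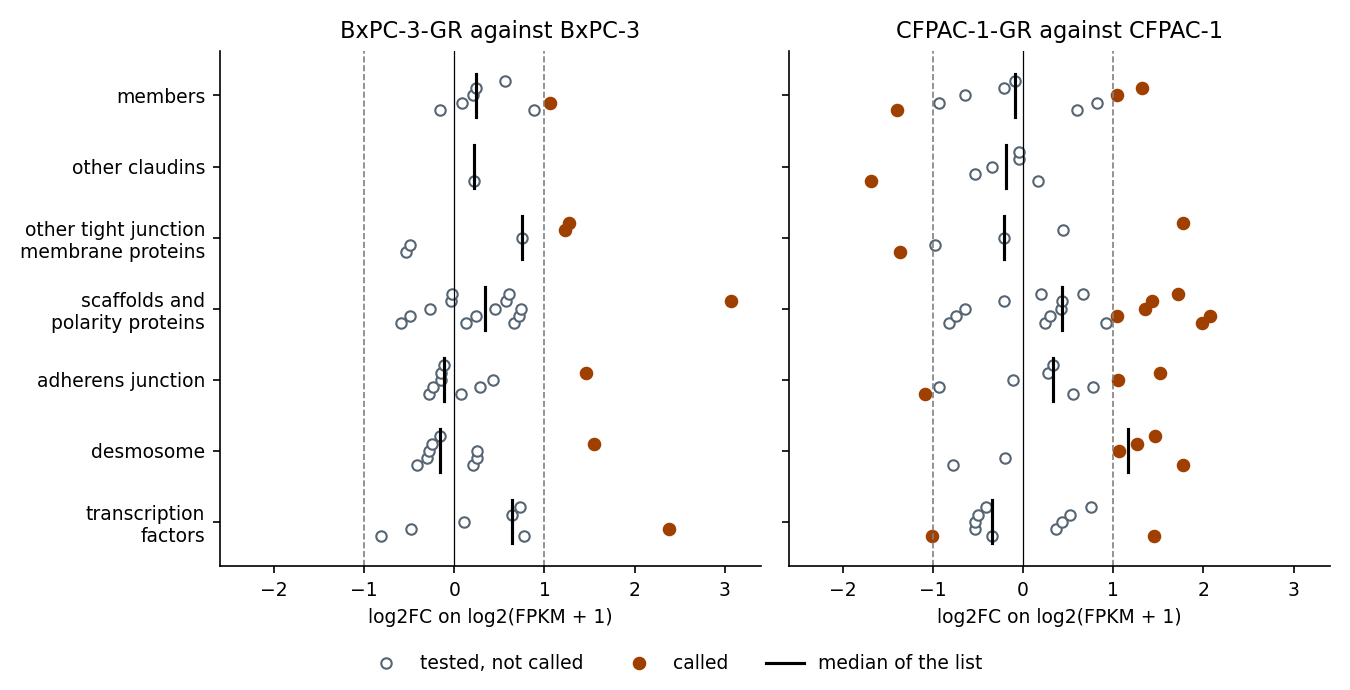
Log2FC of the genes tested in each junction list and of the members, in the resistant against the parental line, as deposited. Each point is a gene, filled if SDE, the black bar is the median of the list and dashed lines mark an absolute log2FC of 1. TJP3 at 3.06 lay farthest out in the BxPC-3 lines, and the filled points of the CFPAC-1 lines lay on both sides.

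Between the parental lines 5 of the 18 other claudins passed the filter, and CLDN10 (-3.35), CLDN11 (-3.0), CLDN9 (-2.80) and CLDN23 (-2.50) were SDE lower in BxPC-3. All 4 had means of at most 0.442 FPKM in BxPC-3 and passed only through CFPAC-1 (7.17 to 9.41 FPKM), so the filter fixed their direction and their count is a description. CLDN8, CLDN16, CLDN22, CLDN24 and CLDN34 were named after their values were seen and were not tested. Their means were higher in BxPC-3 (0.211 to 0.421 FPKM) than in CFPAC-1 (at most 0.130). CLDN17, also not tested, had a mean of 0.0285 FPKM in BxPC-3 and 0 in CFPAC-1. The same 4 that were SDE were lower in BxPC-3-GR than in CFPAC-1-GR, at -1.57, -2.88, -1.61 and -1.82, where only CLDN9 was above 1 FPKM in both. After the correction all stayed SDE, with CLDN9 and CLDN23 at -1.55 and -1.37 between the parental lines. CLDN12, at -0.04 there as deposited, became SDE lower in BxPC-3 (-1.28, adjusted p = 0.0062 in the limma fit). Over all genes the corrected shares were 14.6% upward and 12.4% downward. Of 9 desmosome genes 5 were SDE higher in BxPC-3 and 1 lower, against 24.7% and 19.8% of all genes. They were led by PKP1 (4.51), DSC3 (4.2) and DSG3 (3.93), which were below 1 FPKM in CFPAC-1 and passed only through BxPC-3, and by DSP (3.57), at 94.8 FPKM in BxPC-3 and 7.07 in CFPAC-1. TJP3 had a log2FC of -2.77 in BxPC-3 against CFPAC-1, and of -1.74 after the correction. Among 16 transcription factors known to act on junction genes, 10 were tested between the parental lines, where 3 were SDE higher in BxPC-3, led by the repressor SNAI2 (3.52, and 2.75 after the correction), and 4 lower, led by the epithelial factor ELF3 (-3.29, then -2.79) and the repressor SNAI1 (-2.87, then -1.83). In BxPC-3-GR against BxPC-3, ELF3 was the 1 factor of 7 that was SDE (2.38, adjusted p = 1.12e-05), and 4 more passed by adjusted p alone. Of all genes 4.14% were SDE upward there and 3.62% downward, and 57.7% passed by adjusted p at any size. In CFPAC-1-GR against CFPAC-1, 11 were tested, of which GRHL2 (1.46), an activator of epithelial junction genes, was SDE upward and the intestinal factor CDX2 (-1.01) downward, 9 more passed by adjusted p alone, and after the correction GRHL2 (1.46) and KLF4 (1.11) were SDE upward and 0 downward. Of all genes 20.5% were SDE upward there and 11.7% downward, and 79.6% passed by adjusted p at any size. After the correction 7.07% were SDE upward and 2.35% downward.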

How the data were processed

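Total RNA from 12 libraries (4 lines with 3 libraries each) was sequenced, and the authors deposited 1 table of FPKM for 58302 genes on GRCh38, with Ensembl 91 genes. The submitters' processing notes name Trimmomatic 0.27, FastQC 0.10.1, TopHat2 2.0.8 and the builds hg19 and GRCh38. The program that made the FPKM values is not given in the sources used here. The labels give RPMI medium for all lines and the study's methods another medium for CFPAC-1. Columns were matched to samples by their names.

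From the FPKM values, limma 3.58.1 (R 4.3.3) was fitted on log2(FPKM + 1) for the libraries compared, and for all 12 libraries in the interaction, on genes whose mean there reached 1 FPKM, with Benjamini-Hochberg adjustment over all genes tested. A gene was called SDE when its adjusted p was under 0.05 and its log2FC was beyond 1 in either direction. The log2(FPKM + 1) scale understates the change of low genes. With 3 libraries against 3, an exact permutation test of 1 gene cannot go below p = 0.10, so no such test was used. The count-based alternative with DESeq2 was not run, because the table holds no counts. GC content and length came from GENCODE 29, matched by gene ID for 58039 genes, and the correction fitted a spline with 5 degrees of freedom to each on the log ratios. Implied depth came from the smallest FPKM steps of genes with 1 transcript, where 99.96 to 100% of the low values in each library were whole fragments within a tolerance of 0.05. The scripts were tested on simulated data. Sequences and figures were made with Python 3.11.15.

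All 10 members are named. Of each other list the SDE genes of the comparison described are named, up to 4 with the largest absolute log2FC, and as most alike the 3 protein-coding genes nearest to a member over the 4 line means. MPDZ is named beyond these because of how it passed the filter. The SNAI1, SNAI2 and ZEB1 levels beside the upstream sequences were chosen after their values were seen. The members and lists were chosen with earlier results of these data known. Each comparison was repeated with a pseudocount of 0.1, without the filter, with the 12 libraries fitted together, with replicate numbers as blocks, with the GC content and length correction, both scalings, protein-coding genes only and each library left out. A pseudocount of 0.1 with no filter, and the correction applied to the other lists, were added after seeing the data.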

Additional observations from a re-analysis of the deposited data

Results flagged for a closer look

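In the interaction over all 12 libraries (limma, adjusted over 12210 genes), 2 of 8 members tested were SDE, against 23.6% upward and 14.4% downward of all genes. MARVELD2 (0.74, adjusted p = 0.00319) also passed, by adjusted p alone, where 76.6% of all genes did. CLDN3 had a difference of -2.41 (adjusted p = 3.33e-08), with all 3 libraries of BxPC-3-GR above those of BxPC-3 and all 3 of CFPAC-1-GR below those of CFPAC-1. TJP1 had a difference of 1.47 (adjusted p = 7.26e-07), with all 3 libraries of CFPAC-1-GR above those of CFPAC-1 and all 3 of BxPC-3-GR below those of BxPC-3. In the BxPC-3 lines TJP1 did not pass as deposited (log2FC -0.16, interval -0.34 to 0.03, adjusted p = 0.129). The nearest libraries there were at 10.6 and 10.7 FPKM. With the GC content and length correction the differences of CLDN3 and TJP1 were -0.97 and 0.90, and neither was SDE. CLDN3 reached the filter through the CFPAC-1 lines, and BxPC-3 held 2 implied fragments in all. The size of its difference therefore depends on the pseudocount and was -4.61 with 0.1.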

How the results depend on the processing

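The number of members called was 1 in BxPC-3-GR against BxPC-3, and it was 2 with a pseudocount of 0.1, 2 without the filter and 3 with both changes. In CFPAC-1-GR against CFPAC-1 it was 3, and it was 6 with a pseudocount of 0.1, with or without the filter, and 0 with the GC content and length correction, with or without the replicate block. In BxPC-3-GR against CFPAC-1-GR it was 2, and 4 with both changes. In the interaction it was 2, and 1 with the correction, with or without the replicate block, and 4 with the lower pseudocount and every gene kept. The correction turned the direction in CFPAC-1-GR against CFPAC-1 for CLDN4 (0.069), CLDN7 (0.90) and OCLN (-0.43), in BxPC-3 against CFPAC-1 for CLDN7 (0.55) and MARVELD2 (-0.27), and in the interaction for CLDN7 (0.37), and the same values came with the replicate block. Median-of-ratios scaling turned OCLN (0.064) and F11R (0.15) in BxPC-3-GR against CFPAC-1-GR, upper-quartile scaling likewise (0.045 and 0.13), and a pseudocount of 0.1 turned CLDN1 in the interaction (0.040), with and without the filter. None of these turned values was called before or after. The cause of these changes was not tested beyond the construction of each alternative.

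Leaving out 1 library turned the direction for CLDN4 (-0.89 to 0.78) and F11R (-0.00432 to 0.73) in BxPC-3-GR against BxPC-3, CLDN7 (-0.21 to 0.14) in CFPAC-1-GR against CFPAC-1, F11R (-0.27 to 0.46) and OCLN (-0.0948 to 0.0204) in BxPC-3-GR against CFPAC-1-GR, and CLDN1 (-0.11 to 0.15) and CLDN4 (-1.42 to 0.25) in the interaction. Where a member fell below the filter without a library it has no value there. Same-numbered libraries did not deviate together (correlations of -0.143 to 0.0959), so the numbers were not taken as pairs, and the replicate block left 1, 3, 3, 2 and 2 members called in BxPC-3-GR against BxPC-3, CFPAC-1-GR against CFPAC-1, BxPC-3 against CFPAC-1, BxPC-3-GR against CFPAC-1-GR and the interaction, the same numbers as without it. CLDN4 in BxPC-3 against CFPAC-1 was called with the block and the correction together (1.82, adjusted p = 0.043). CLDN1 in BxPC-3-GR against BxPC-3 was called in all 16 alternatives (1.02 to 1.11). Upper-quartile scaling put CLDN3 at a mean of 170.5 FPKM in CFPAC-1 and 45.3 in CFPAC-1-GR.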
